A study of Mus musculus with 10 samples.

Results

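Genes that mark endothelial cells (EC) across vessel types were read in whole lungs of neonatal mice: the adhesion and junction genes Pecam1, Cdh5, Esam, Cldn5 and Emcn, the transcription factors Erg, Sox18 and Sox7, and the receptor partner Ramp2. They were chosen by gene name, 9 of the 35275 genes in the table. Dll4+/- pups carried 1 Dll4 allele replaced by a lacZ reporter (4 libraries, replicates 1 to 4), and Dll4+/+ littermates carried both alleles (4 libraries, replicates 3 to 6). All pups were of the CD1 strain, rederived from frozen sperm, and were taken at postnatal day 6 (P6), when alveoli form. The lacZ allele was present in every cell of the pup rather than in EC alone, and RNA came from the right lung as a whole, so EC were 1 of many cell types in each library. The comparison asks whether genes shared by most EC differ in level when 1 copy of Dll4, the endothelial ligand of Notch receptors, is lost.

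EC of lung capillaries, arteries and veins are held together by adherens junctions, built on VE-cadherin and the catenins bound to its tail, and by tight junctions, in which claudin-5 seals the space between cells. Erg, a member of the ETS family that binds GGAA cores, is known to drive junction genes such as Cdh5. Sox7 and Sox18, with Sox17, form the SoxF group, whose binding to enhancers of Notch pathway genes, Dll4 among them, is known from mouse and zebrafish. Ramp2 carries the receptor Calcrl to the cell surface, where the pair responds to adrenomedullin, a peptide needed for vessel integrity.

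Expression is given as FPKM, the fragments counted on a gene relative to its length and to the fragments of the library. Recovered library totals were 17201662 to 22927840 fragments, and 13248 to 13721 genes per library reached 1 FPKM. Dll4 was 11.4, 15.6, 20.7 and 11.6 FPKM in Dll4+/- lungs, against 22.7, 25.8, 30.7 and 31.3 FPKM in Dll4+/+ lungs, with no overlap (exact permutation p = 0.0286, two-sided, the smallest that 4 against 4 libraries allow). Dll4+/- replicates 1 and 4 and Dll4+/+ replicate 3 stood apart from the rest, with a median Spearman correlation across genes of 0.919, 0.956 and 0.964 with the other libraries, against 0.981 to 0.985 for the remaining 5. Dll4+/- replicate 2 was labelled female but had 20.3 FPKM of the Y-linked gene Ddx3y and 0.273 FPKM of Xist, which goes against that label. Ddx3y was 16.8 to 21.4 FPKM in Dll4+/- replicates 1, 2 and 4, and 0 in replicate 3. In Dll4+/+ lungs it was 15.5 and 19.7 FPKM in replicates 3 and 6, and 0 in replicates 4 and 5. Sex labels were not used in the main fit and entered only a single alternative, as a covariate.

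All 9 genes were well detected in every library, with 840 to 18136 fragments per gene, so that counting alone gave an error of 1.07% to 3.45% at each gene's lowest value. In Dll4+/+ lungs the mean level per length ran in the order Cldn5, Ramp2, Pecam1, Esam, Cdh5, Sox18, Emcn, Sox7 and Erg. Cldn5 stood between percentiles 98.7 and 99.4 of the 13610 genes tested in each library, whereas Erg stood between 62.8 and 82.6. Of neighbours in this order, Cldn5 exceeded Ramp2 and Sox18 exceeded Emcn in 8 of 8 libraries without overlap in either genotype. Ramp2 exceeded Pecam1 in 7 of 8 libraries, and the ranges overlapped in Dll4+/- lungs alone. The other neighbours overlapped in both genotypes, Esam and Cdh5 most closely, with Esam the higher in 4 of 8 libraries.

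The 9 genes are protein coding (GENCODE M21 on GRCm38). On the forward strand lie Cdh5 (ENSMUSG00000031871) from 104101625 to 104144511 of chromosome 8, Esam (ENSMUSG00000001946) from 37528078 to 37538319 of chromosome 9 and Cldn5 (ENSMUSG00000041378) from 18776847 to 18778262 of chromosome 16. The forward strand also holds Emcn (ENSMUSG00000054690) from 137341067 to 137432185 of chromosome 3, Sox7 (ENSMUSG00000063060) from 63943673 to 63950732 of chromosome 14 and Ramp2 (ENSMUSG00000001240) from 101246028 to 101259546 of chromosome 11. On the reverse strand lie Pecam1 (ENSMUSG00000020717) from 106654217 to 106750628 of chromosome 11, Erg (ENSMUSG00000040732) from 95359169 to 95586593 of chromosome 16 and Sox18 (ENSMUSG00000046470) from 181669836 to 181671640 of chromosome 2. Sox18 shares its chromosome with Dll4. Promoter sequence, 250 bases before to 50 after a start site, was held by the RefSeq table (GRCm38.p6) for 3 of the 9 genes, 1 start site each for Emcn and Cldn5 and 3 for Erg. These are printed 5′ to 3′ on the gene's own strand, because Erg is an ETS factor whose core, GGAA, can be read in them. Capitals mark GGAA and, for the core on the opposite strand, TTCC. For Erg the start site at the 5′ end of the gene is shown.
Emcn, chr3:137340828-137341127, forward strand: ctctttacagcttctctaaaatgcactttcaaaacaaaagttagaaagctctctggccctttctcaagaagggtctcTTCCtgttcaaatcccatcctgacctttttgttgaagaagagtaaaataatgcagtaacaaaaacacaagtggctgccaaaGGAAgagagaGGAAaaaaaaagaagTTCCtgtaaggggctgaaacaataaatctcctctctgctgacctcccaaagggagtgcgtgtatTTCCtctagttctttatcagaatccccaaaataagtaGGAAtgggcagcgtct
Cldn5, chr16:18776597-18776896, forward strand: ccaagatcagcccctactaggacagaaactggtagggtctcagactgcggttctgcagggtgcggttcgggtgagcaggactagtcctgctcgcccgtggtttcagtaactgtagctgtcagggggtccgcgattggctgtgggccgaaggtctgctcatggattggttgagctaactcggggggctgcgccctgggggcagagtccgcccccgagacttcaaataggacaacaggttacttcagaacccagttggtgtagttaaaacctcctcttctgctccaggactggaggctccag
Erg, chr16:95586544-95586843, reverse strand: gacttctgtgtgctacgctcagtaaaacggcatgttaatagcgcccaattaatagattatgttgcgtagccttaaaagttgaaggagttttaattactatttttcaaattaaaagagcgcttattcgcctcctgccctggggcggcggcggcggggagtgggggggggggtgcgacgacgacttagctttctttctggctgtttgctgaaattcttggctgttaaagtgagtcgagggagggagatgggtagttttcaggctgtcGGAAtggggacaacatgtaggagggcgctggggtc

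The Emcn promoter held 6 GGAA cores over both strands, against a median of 3 over all 32851 promoters of the table, and 1 of its cores lay within the longer ETS motif ACAGGAAG, which 3.58% of all promoters contained. The Cldn5 window held 0 cores, although 96.0% of promoters of the same length held at least 1. At the Erg start sites the count was 1 at the printed site and 4 and 2 at the others. ACAAT, part of the sequence that Sox proteins bind, was found at 1 position at Emcn and at 2 positions of the third Erg window (31.0% of all promoters), and the longer AACAAT, which contains it, at 1 position in each of these 2 windows (10.7%). CCACCC, a box read by Klf factors, was in none of the 5 windows (31.5% of all promoters). TATAAA was found at 1 position, at the second Erg site (13.6% of all promoters). A match in these windows is a description of letters only.

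None of the 9 genes passed the test between genotypes after adjustment over all genes tested. An adjusted limma p of 0.05 was reached by 0 of 9, and by 0% of the 13610 genes tested. Dll4 itself, whose genotypes did not overlap, was among the genes that did not reach it. Under an unadjusted p of 0.05 lay 0 of 9, against 3.36% of all genes, and in 0 of 9 were the 2 genotypes free of overlap, against 3.12% of all genes. A log2 fold change above 0 was found in 5 of the 9, beside 45.9% of all genes, and the median of the 9 was 0.02, beside -0.02 over all genes. That median of the 9 was 0.20 without Dll4+/- replicate 4, -0.075 without Dll4+/- replicate 1 and -0.24 with the replicate block, which compares libraries of the same replicate number although the numbers are not known to pair the pups. The number under the unadjusted threshold was 2 without Dll4+/- replicate 4 (Cdh5 and Erg) and 1 without Dll4+/- replicate 3 (Cldn5), and 0 passed after adjustment in either case. Of all 13610 genes tested, 587 and 707 lay under that threshold in these fits, against 457 with all 8 libraries.

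**Figure D1:**
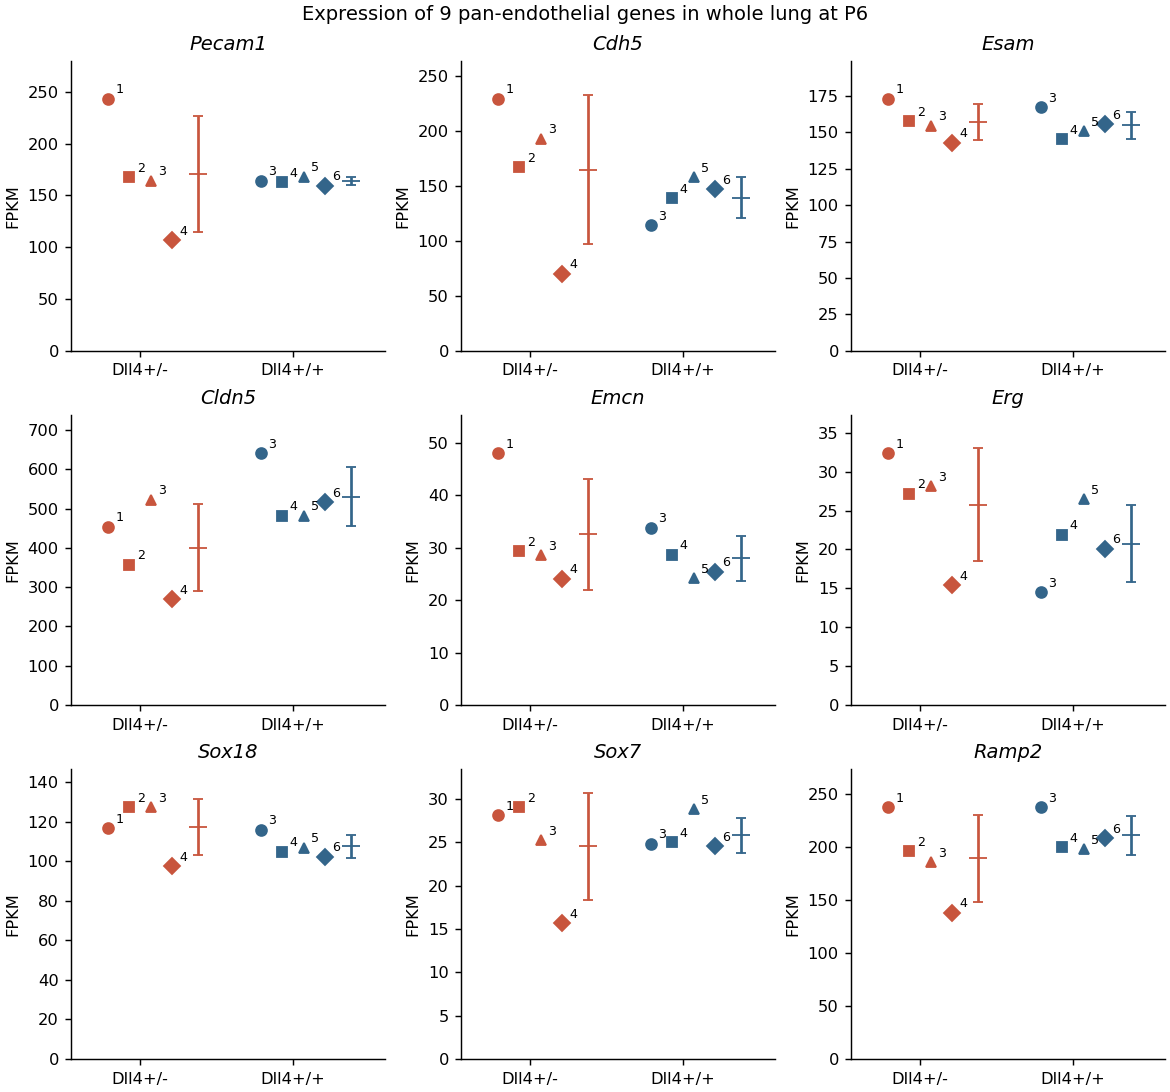
FPKM (y axis, from 0) of the 9 genes in each library, Dll4+/- left and Dll4+/+ right, with the replicate number beside each point and the group mean ± SD (n = 4 each) to the right of the points. Dll4+/- replicate 4 is the lowest library for 8 of the 9 genes, and the Dll4+/- points are the wider spread for every gene.

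Among the adhesion genes, Pecam1, which encodes the homophilic adhesion molecule CD31 at EC contacts, was 243, 167, 164 and 107 FPKM in Dll4+/- replicates 1, 2, 3 and 4, against 164, 163, 168 and 159 FPKM in Dll4+/+ replicates 3, 4, 5 and 6 (the replicate order used throughout). The 4 wild-type pups were nearly alike, with a coefficient of variation of 2.24% and an SD on the log2 scale at percentile 1.98 of all genes, whereas Dll4+/- replicate 1 lay above and replicate 4 below all of them. The mean was 170.3 ± 56.0 FPKM for Dll4+/- and 163.6 ± 3.67 FPKM for Dll4+/+ (SD over 4 libraries each). The log2 fold change of FPKM + 1, taken as Dll4+/- minus Dll4+/+ here and below, was -0.0010 (SE 0.22, 95% interval -0.49 to 0.49, limma adjusted p = 0.999).

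Cdh5, which encodes VE-cadherin, was 229, 167, 193 and 70.3 FPKM in Dll4+/- lungs, against 114, 139, 158 and 147 FPKM in Dll4+/+ lungs. Of the heterozygous libraries, 3 of 4 lay above the highest wild-type library, and replicate 4 lay below the lowest. The difference was within this spread (log2 fold change 0.12, SE 0.33, 95% interval -0.61 to 0.86, limma adjusted p = 0.920). Without Dll4+/- replicate 4 the log2 fold change was 0.49 at an unadjusted p of 0.0140, and the adjusted p was 0.694. Without Dll4+/- replicate 1 it was -0.075. Cdh5 overlaps an antisense gene, Gm29682, but shares 0 exon bases with it.

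Esam, an immunoglobulin-type adhesion molecule of EC and platelets, was 173, 158, 155 and 143 FPKM in Dll4+/- lungs, against 168, 145, 151 and 156 FPKM in Dll4+/+ lungs. It was the steadiest of the 9 genes in Dll4+/- lungs, with an SD of 0.11 on the log2 scale, at percentile 11.01 of all genes. The log2 fold change was 0.02 with an interval of -0.23 to 0.27 (SE 0.11, limma adjusted p = 0.970), the narrowest interval among the 9.

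Cldn5, the claudin of endothelial tight junctions, had the lowest log2 fold change of the 9. It was 454, 357, 522 and 269 FPKM in Dll4+/- lungs, against 642, 481, 482 and 517 FPKM in Dll4+/+ lungs. Of the heterozygous libraries, 3 of 4 lay below the lowest wild-type library, and Dll4+/- replicate 3 lay above all but 1 of them. The mean was 401 ± 111 FPKM for Dll4+/- and 531 ± 76.1 FPKM for Dll4+/+ (SD over 4 libraries each), and their ratio was 0.755. The difference missed the threshold (log2 fold change -0.44, SE 0.22, 95% interval -0.93 to 0.05, unadjusted limma p = 0.0731, adjusted p = 0.811), as it did in an exact permutation test (two-sided p = 0.143). Without Dll4+/- replicate 3 the log2 fold change was -0.58 at an unadjusted p of 0.0256, and without Dll4+/- replicate 4 it was -0.26.

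Emcn, the sialomucin endomucin of capillaries and veins, was 48.1, 29.4, 28.6 and 24.1 FPKM in Dll4+/- lungs, against 33.8, 28.7, 24.2 and 25.4 FPKM in Dll4+/+ lungs. Dll4+/- replicate 1 alone exceeded the wild-type range, and replicate 4 lay just under it. The log2 fold change was 0.17 (SE 0.20, 95% interval -0.29 to 0.63, limma adjusted p = 0.827) and -0.03 without Dll4+/- replicate 1.

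The transcription factors were higher than the wild-type range in 3 of 4 heterozygous lungs for Erg and for Sox18, and in 1 of 4 for Sox7. Erg was 32.4, 27.2, 28.1 and 15.4 FPKM in Dll4+/- lungs, against 14.5, 21.9, 26.5 and 20.1 FPKM in Dll4+/+ lungs. Dll4+/- replicate 4 fell inside the wild-type range, whose lowest value was Dll4+/+ replicate 3. The log2 fold change of 0.28 (SE 0.24, 95% interval -0.27 to 0.83) missed the threshold (limma adjusted p = 0.811) and was 0.50 without Dll4+/- replicate 4, at an unadjusted p of 0.0285. It was 0.13 without Dll4+/+ replicate 3 and 0.16 without Dll4+/- replicate 1.

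Sox18, a SoxF factor of developing blood and lymph vessels, was 117, 127, 127 and 97.6 FPKM in Dll4+/- lungs, against 116, 105, 107 and 102 FPKM in Dll4+/+ lungs. Dll4+/- replicate 4 lay below the wild-type range and the other 3 above it, replicate 1 only just. The log2 fold change was 0.12 (SE 0.12, 95% interval -0.15 to 0.39, limma adjusted p = 0.813). With library weights, which counted Dll4+/- replicates 1 and 4 and Dll4+/+ replicate 3 less, it was 0.25 at an unadjusted p of 0.00367, and the adjusted p was 0.475.

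Sox7, the other SoxF factor among the 9, was 28.1, 29.1, 25.3 and 15.7 FPKM in Dll4+/- lungs, against 24.8, 25.0, 28.9 and 24.6 FPKM in Dll4+/+ lungs. Dll4+/- replicate 4 lay well under all other libraries, which overlapped. The log2 fold change was -0.11 (SE 0.18, 95% interval -0.52 to 0.31, limma adjusted p = 0.888) and 0.09 without that library.

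Ramp2 was 238, 196, 186 and 138 FPKM in Dll4+/- lungs, against 238, 199.9, 198 and 208 FPKM in Dll4+/+ lungs. In Dll4+/- lungs 3 of 4 libraries lay below the lowest wild-type library, replicate 2 only just, and Dll4+/- replicate 1 equalled the highest at this precision. The difference was within the spread (log2 fold change -0.18, SE 0.17, 95% interval -0.56 to 0.20, limma adjusted p = 0.812). Leaving out Dll4+/- replicate 4 gave -0.035 on the log2 scale, and leaving out Dll4+/- replicate 1 gave -0.30. A transcript annotated to Ramp2 overlaps exons of the neighbouring gene Vps25 by 1103 bases on the same strand, so fragments of that stretch are uncertain.

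**Figure D2:**
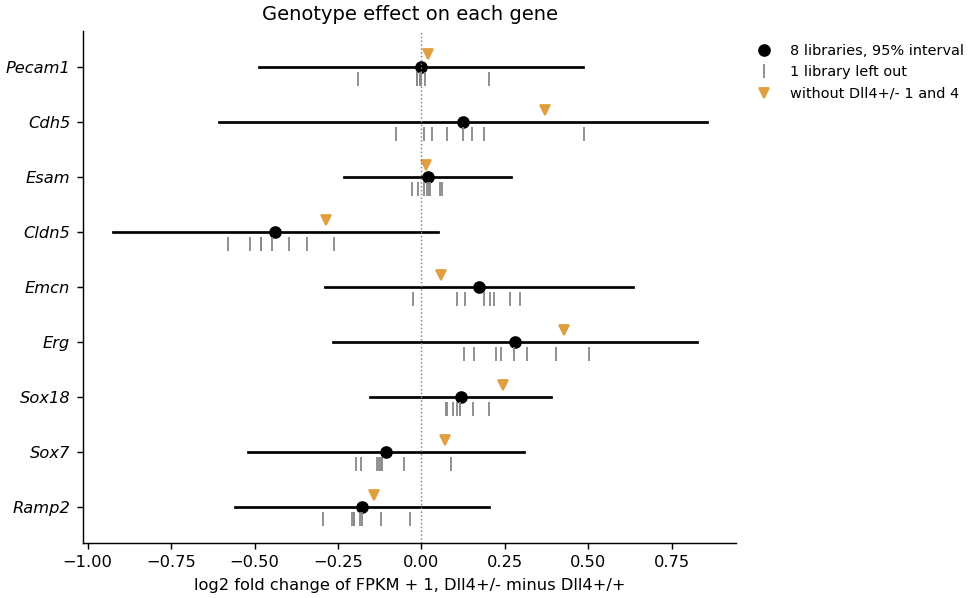
Log2 fold change of FPKM + 1 (x axis, Dll4+/- minus Dll4+/+) for the 9 genes (y axis). Black points and lines are the limma estimate over 8 libraries with its 95% interval, grey ticks the estimate with each library left out in turn, and triangles the estimate without Dll4+/- replicates 1 and 4. All 9 intervals include 0, and Cldn5, at -0.44, has the lowest estimate.

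Most of the 9 genes deviated together in 2 heterozygous libraries, although the widest deviation of Erg, -0.60, lay in Dll4+/+ replicate 3. Dll4+/- replicate 4 was the lowest library for 8 of 9 genes, and all 9 lay below their mean over the 8 libraries there. Dll4+/- replicate 1 was the highest for 6 of 9. The same counts were not made over all genes, and both libraries stood apart across genes (median Spearman correlation with the others 0.919 for replicate 1 and 0.956 for replicate 4). Summed over the 9 genes, expression was 1563, 1258, 1430 and 879 FPKM in Dll4+/- lungs, against 1515, 1309, 1343 and 1360 FPKM in Dll4+/+ lungs. The median deviation of the 9 from their 8-library means was 0.26, 0.03, 0.03 and -0.52 on the log2 scale in Dll4+/- lungs, against 0.05, -0.04, 0.04 and -0.01 in Dll4+/+ lungs. Log2 SDs ran from 0.11 (Esam) to 0.75 (Cdh5) in Dll4+/- lungs and from 0.03 (Pecam1) to 0.35 (Erg) in Dll4+/+ lungs, beside medians over all genes of 0.26 in Dll4+/- and 0.15 in Dll4+/+ lungs. In whole lung, fewer EC and less RNA per EC cannot be told apart.

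Other gene lists moved in the same libraries. In Dll4+/- replicate 4 the median deviation was -0.56 for 20 other pan-endothelial genes and -0.34 for 14 other endothelial transcription factors, but 0.53 for 14 epithelial markers and 0.83 for the 7 of 8 platelet markers tested. Epithelial markers summed to between 22182 and 48618 FPKM in Dll4+/- lungs, against 24847 to 38683 FPKM in Dll4+/+ lungs, and platelet markers to between 62.5 and 138 FPKM in Dll4+/- lungs, against 63.0 to 97.0 FPKM in Dll4+/+ lungs. In Dll4+/- replicate 1, where most of the 9 were highest, the median deviation was 0.31 for the 20 other pan-endothelial genes and 0.18 for the 14 transcription factors. It was -0.075 there for 8 adherens junction partners. In the same library 10 cell cycle genes had a median deviation of -2.19, against 0.04 to 0.44 in the other 7 libraries, and 6 genes of the adrenomedullin pathway one of 0.99. Cell cycle genes summed to between 40.5 and 312 FPKM in Dll4+/- lungs, against 292 to 332 FPKM in Dll4+/+ lungs. No marker of these 3 lists was at 0 in every library, and their part in the levels of the 9 genes was not tested.

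**Figure D3:**
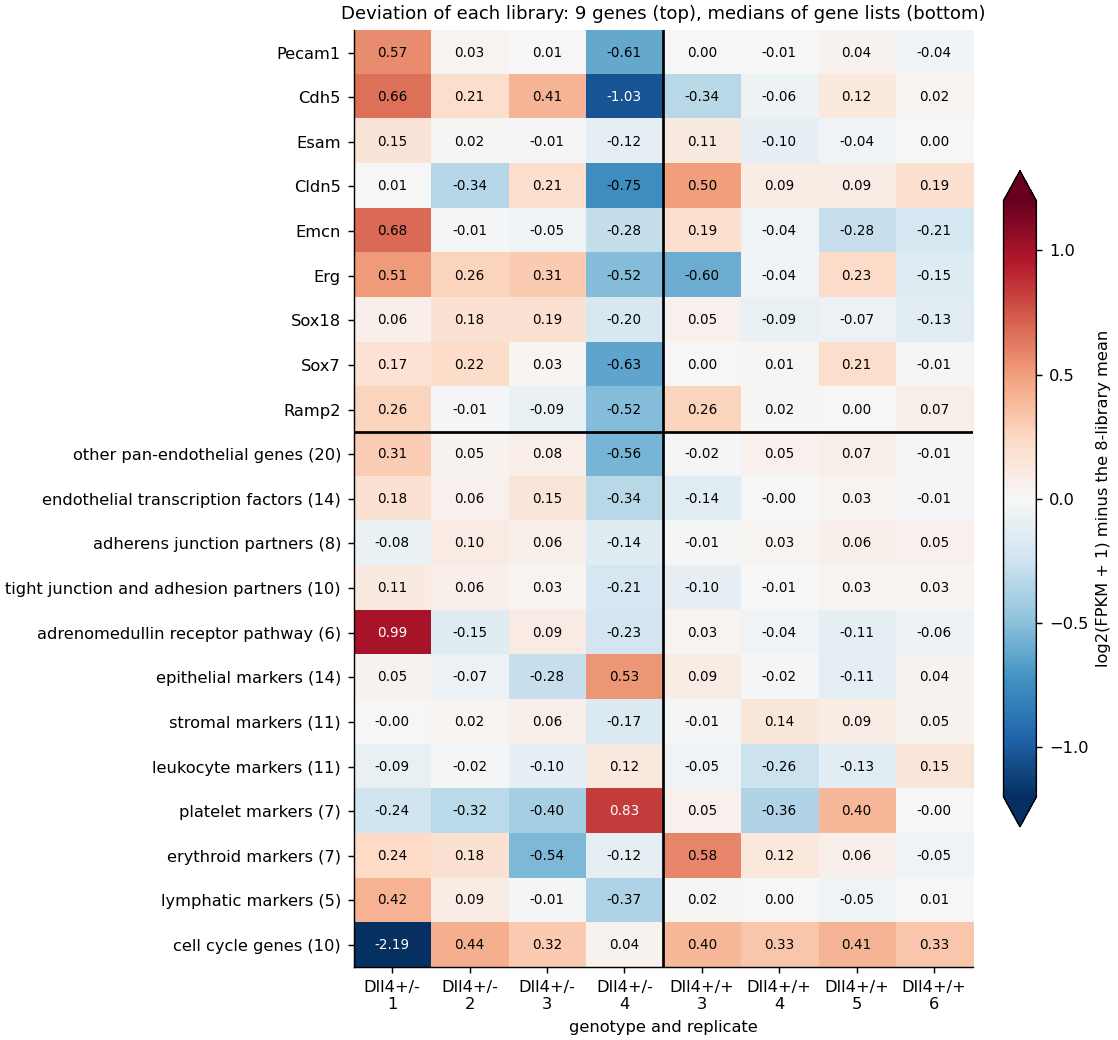
Deviation of each library (columns, Dll4+/- left) from the 8-library mean on the log2(FPKM + 1) scale, for the 9 genes (top) and as the median over other gene lists (bottom, number of genes tested in brackets). Dll4+/- replicate 4 is negative for all 9 genes (-0.12 to -1.03) while its epithelial and platelet lists are at 0.53 and 0.83, and Dll4+/- replicate 1 is at -2.19 for cell cycle genes.

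Without Dll4+/- replicates 1 and 4, with 2 heterozygous libraries left against 4, 0 of 9 genes passed after adjustment. Cdh5, at 0.37 (SE 0.14), and Sox18, at 0.24 (SE 0.089), were under the unadjusted threshold (limma adjusted p = 0.849 for both), and the other 7 were not. Without Dll4+/+ replicate 3 as well, Cdh5 (0.28), Erg (0.27) and Sox18 (0.28) were under the unadjusted threshold, and again 0 of 9 passed after adjustment, with limma adjusted p values of 0.649, 0.727 and 0.417. Of all 13610 genes tested, 523 were under the unadjusted threshold in the first of these fits and 930 in the second, against 457 with all libraries.

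The 9 genes varied together over the 8 libraries, and less so without the same 2 lungs. Of 36 pairs, 36 had a Pearson r above 0 on the log2 scale (median 0.57), and 12 had an r of 0.7 or more. Over the 6 libraries without Dll4+/- replicates 1 and 4, the median was 0.14, with 18 pairs above 0 and 2 at 0.7 or more. These 2 were Cdh5 with Erg (r = 0.89 and rho = 0.95 over 8 libraries, r = 0.93 over 6) and Pecam1 with Sox7 (r = 0.83 and rho = 0.88 over 8, r = 0.87 over 6). Ramp2 ran against Erg and Cdh5 in the 6 libraries (r = -0.96 and -0.93), as opposed to 0.29 and 0.66 over all 8. By rank over the 8 libraries, Cldn5 had a rho of -0.12 with Sox7 and -0.19 with Erg, the only pairs below 0. Ramp2 had a rho of 0.33 with Pecam1 and 0.048 with Sox7, where r was 0.85 and 0.78. These coefficients describe points that share library composition and depth, and no test was made. The same shares were not computed for other gene pairs.

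The balance among the genes differed from one lung to the next, and 4 genes are given here that were picked after their values were seen. Relative to the mean of the other 8 genes, Cldn5 was 2.14, 2.06, 2.62 and 2.26 log2 units higher in Dll4+/- lungs, against 3.06, 2.64, 2.58 and 2.76 in Dll4+/+ lungs, a difference of -0.49. Dll4+/- replicate 3 overlapped the wild-type range, and the other 3 lay below it. In Dll4+/+ replicate 3, Cldn5 and Ramp2 lay 0.50 and 0.26 above their 8-library means, and Cdh5 and Erg at -0.34 and -0.60 relative to theirs.

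Transcript length was read beside this pattern. The longest annotated transcript has 1416 bases for Cldn5, 1478 for Ramp2, 1620 for Sox18 and 1865 for Esam, and 3249 (Erg) to 3995 (Cdh5) bases for the other 5. In Dll4+/+ replicate 3, the median deviation of the 25% of genes with the longest transcripts minus that of the 25% with the shortest was -0.47, against -0.13 to 0.19 in the other 7 libraries. The 4 genes with short transcripts had a median deviation of 0.18 in that library and the 5 with long ones a median of 0.0020. In Dll4+/- replicate 1 these medians were 0.11 (short) and 0.57 (long), where the difference over all genes was 0.075. In Dll4+/- replicate 3 they were 0.088 (short) and 0.025 (long), where the difference over all genes was 0.19. After each library was centred within 10 classes of transcript length, an alternative added after the data were seen, Cldn5 was at -0.34 (SE 0.22) and Erg at 0.30 (SE 0.24), each with a limma adjusted p of 0.773. The 4 short transcripts all moved upwards under this centring, Cldn5 from -0.44 uncentred. Ramp2 moved to -0.077 from -0.18, Sox18 to 0.22 from 0.12 and Esam to 0.083 from 0.019. The centring subtracts 1 value per library from all genes of a class, so genes of the same class must move by the same amount. Cldn5, Ramp2 and Sox18 share a class (length percentiles 14.3, 15.3 and 17.9), so their moves are not separate results. Of the 9 genes, 0 were under the unadjusted threshold. GC content of the transcripts was 40.7% for Emcn and 60.5% and 60.9% for Cldn5 and Sox18, and the median deviation of the 25% of genes richest in GC minus that of the 25% poorest was 0.24 in Dll4+/- replicate 1, against -0.12 to 0.09 in the others. The part of length and GC in the levels of single genes was not tested beyond this.

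**Figure D4:**
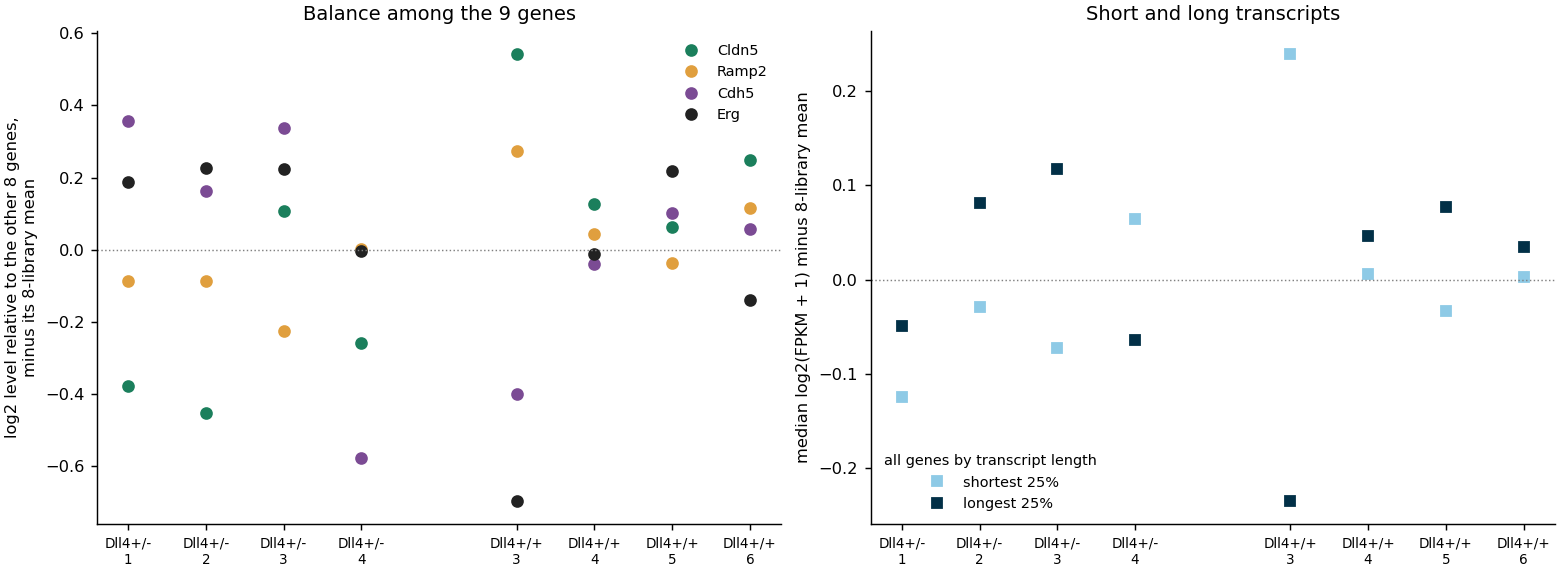
Left, level of Cldn5, Ramp2, Cdh5 and Erg relative to the other 8 genes (log2 units, centred on each gene's 8-library mean) in each library, Dll4+/- left and Dll4+/+ right. Right, median log2(FPKM + 1) deviation of the 25% of genes with the shortest and the 25% with the longest transcripts. In Dll4+/+ replicate 3, Cldn5 and Ramp2 are high, Cdh5 and Erg low, and the longest minus the shortest transcripts is at -0.47.

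Genes that work with the 9 were counted from lists. Of 8 adherens junction partners, 3 were higher and 5 lower in Dll4+/- lungs (median log2 fold change -0.03), and 0 passed at either threshold. The most abundant, Ctnnb1 (β-catenin) and Ctnna1 (α-catenin), were at -0.13 (SE 0.15) and -0.04 (SE 0.10). Of 10 tight junction and adhesion partners of Cldn5 and Esam, 7 were higher and 3 lower (median 0.08) and 0 passed, with F11r at 0.03 (SE 0.11) and Icam2 at -0.28 (SE 0.27). Of 14 further endothelial transcription factors, 9 were higher and 5 lower (median 0.07) and 0 passed, with Epas1 at 0.14 (SE 0.26) and Ets1 at -0.16 (SE 0.23). Of 20 other pan-endothelial genes, Sox17 again among them, 7 were higher and 13 lower (median -0.07) and 0 passed, with Egfl7 at 0.11 (SE 0.15) and Cd34 at -0.21 (SE 0.15). Markers of other cells had medians of 0.06 (epithelial, 8 of 14 higher), 0.01 (stromal, 6 of 11), 0.07 (leukocyte, 6 of 11), -0.04 (platelet, 2 of 7) and -0.12 (erythroid, 2 of 7), and 0 of them passed at either threshold.

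Of the 8 genes around Ramp2 in adrenomedullin signalling, 6 reached the level needed for the test, 4 of them higher and 2 lower (median 0.28). Adm, the ligand adrenomedullin, was under the unadjusted threshold, the only one of these 6, and missed the adjusted one (log2 fold change 0.78, SE 0.30, limma adjusted p = 0.811). Its mean level was 21.1 ± 9.98 FPKM with 1 Dll4 copy and 11.04 ± 2.15 FPKM with both (SD over 4 libraries). Calcrl, named here as the receptor that Ramp2 accompanies, was at -0.13 (SE 0.36). Of lymphatic genes, 5 of 7 were tested, 2 higher and 3 lower (median -0.02), and Lyve1, a hyaluronan receptor of lymphatic EC and some macrophages, was at -1.24 (SE 0.48, limma adjusted p = 0.811), under the unadjusted threshold. All 10 cell cycle genes had values below 0 (median -0.71), with 0 of 10 under the unadjusted threshold. Their median deviation was -2.19 in Dll4+/- replicate 1 but 0.44, 0.32 and 0.04 in the other Dll4+/- lungs, against 0.33 to 0.41 in Dll4+/+ lungs.

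Relative to the mean of the 9 genes, Dll4 lay at -3.30, -2.60, -2.26 and -2.41 log2 units in Dll4+/- lungs, against -2.04, -1.82, -1.63 and -1.55 in Dll4+/+ lungs. The genotypes did not overlap on this scale. Dll4+/- replicates 1 and 4 had nearly the same Dll4 level in FPKM but differed here, at -3.30 in replicate 1 and -2.41 in replicate 4.

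The genes whose log2 levels were most like the average profile of the 9, by Pearson r over the 8 libraries, were Galnt18 (0.995), Sh3glb1 (0.991), Col13a1 (0.988), Cdc42ep1 (0.983), Nt5dc2 (0.982), Pnpla8 (0.981), Prkch (0.981), Tmem204 (0.980), Sparc (0.976) and Itgb5 (0.974). Galnt18 ranged from 14.1 FPKM in its lowest library to 51.5 in its highest, and Sparc, which encodes a secreted matrix protein, from 897 to 1797 FPKM. The points are the same 8 libraries, and that profile is highest in Dll4+/- replicate 1 and lowest in Dll4+/- replicate 4.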

How the data were processed

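Right lungs were taken from P6 pups, total RNA was extracted with a MirVana kit, and poly-A selected NEBNext Ultra libraries were read as paired ends on a NovaSeq. CASAVA, STAR and the build GRCm38.p4 appear in the submitters' processing notes. The tool that made the FPKM values and the use of strand are not given in the sources used here. The authors deposited 1 table with FPKM columns for 8 of the 10 samples. The other 2 (Dll4+/+ replicates 1 and 2) are not analysed here. The authors' deposited columns of ratios, log2 values and p-values between genotypes were not used. In 239 genes a substituted FPKM of 0.005 was set back to 0.

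Genes of FPKM 1 or more in at least 4 libraries (13610) were tested on log2(FPKM + 1) with limma 3.58.1 (R 4.3.3), with empirical Bayes moderation and a mean-variance trend. This scale understates changes of genes with low FPKM. P values were adjusted by Benjamini-Hochberg over the whole table, and 0.05 was the threshold. The design had foreseen 6 Dll4+/+ libraries, and 4 were tested against 4 Dll4+/- libraries. Exact permutation tests (two-sided, scipy 1.17.1) were used for single values. Libraries came from separate pups, and litters were not modelled.

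Fragments were recovered from the FPKM steps: 100% of the genes tested gave whole numbers within 0.01, 1454 of them with the exon length of the annotation. For 6 of the 9 genes the recovered length equalled the longest annotated transcript, and for the others it lay within 9 bases. Positions came from GENCODE M21. The fit was tested on simulated data with noise independent between genes and changes larger than those of the 9 genes. That check does not show how often changes as small as those of the 9 would be found. Members and lists were chosen with earlier results of these data known. All 9 genes are named. From a list, genes under an unadjusted p of 0.05 are named, or else the 2 of highest mean FPKM. For likeness, the 10 genes of highest Pearson r with the mean standardised profile are named. Of 139 list symbols 138 were found.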

Additional observations from a re-analysis of the deposited data

Results flagged for a closer look

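Within the 4 Dll4+/+ lungs, Sox7 was 28.9 FPKM in replicate 5, while replicates 3, 4 and 6 lay between 24.6 and 25.0 FPKM. The gap to the next library was 0.888 of the group's range, above the critical value of Dixon's test for 4 samples. It was 1 of the 18 groups of 4 values read in this way, of which chance picks about 1 in 20. In the Dll4+/- lungs Sox7 reached 29.1 FPKM in replicate 2.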

How the results depend on the processing

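No gene of the 9 passed an adjusted p of 0.05 under any of the 20 alternatives run, and Cldn5, Ramp2 (below 0), Erg and Sox18 (above 0) kept their sign in all of them. The number under an unadjusted p of 0.05 was 0 to 2 with single libraries left out, 1 with library weights, 2 without Dll4+/- replicates 1 and 4, and 3 without Dll4+/+ replicate 3 as well. Pecam1, at -0.0010, changed sign to 0.044 (rescaled to 1 FPKM total), 0.017 (centred on the median log ratio), 0.0029 (voom), 0.0040 (library weights), 0.017 (centred within 10 classes of length, added after the data were seen), 0.020 and 0.022 (without the 2 and the 3 libraries), and it ranged from -0.19 to 0.20 with single libraries left out. Sox7 changed to 0.033 with library weights, and to 0.071 and 0.054 without the 2 and the 3 libraries, with a range of -0.20 to 0.088 over single libraries left out. The same ranges were 0.13 to 0.50 for Erg, 0.075 to 0.20 for Sox18, -0.30 to -0.035 for Ramp2, -0.58 to -0.26 for Cldn5, -0.075 to 0.49 for Cdh5, -0.029 to 0.062 for Esam and -0.026 to 0.30 for Emcn. With the replicate block, Cdh5 was -0.11, Esam -0.069 and Emcn -0.24. The block rests on replicate numbers 3 and 4, which alone are shared. With each gene's genotype mean subtracted, the deviations of same-numbered libraries had correlations of -0.23 and -0.06 across genes, so the replicate numbers are read as numbers only. Over all genes, the count past the adjusted threshold, 0, was 3 with library weights, 16 with the replicate block, 6 without the 3 libraries and 0 with each single library left out. The count under the unadjusted threshold, 457, was 933 without a filter, 286 with a stricter one and 775 with library weights. Without the 2 and the 3 libraries it was 523 and 930, and with single libraries left out it was 230 to 957. The cause of these moves was not tested. Leaving out Dll4+/+ replicates 1 and 2 could not be run. With 840 or more fragments per gene, counting error was 1.07% to 3.45% at each gene's lowest value. Because libraries came from separate pups, spread between pups cannot be told apart from spread between library preparations.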
